A study of Mus musculus with 13 samples.

Results

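Slc26a9, Il33, Enpep, Itih4, Chil1, Adgrg6 and Fam78a were followed through 13 mouse small cell lung cancer tumours. They are 7 of 54532 genes in the count table and of 16575 genes with enough reads to be tested. They were picked for a large fall in tumours made with a guide against Kdm6a, so their difference between the genotypes is a description here and carries no test. The question put to them was whether that difference was larger than the loss of normal lung, read from the alveolar genes Sftpc, Sftpd and Lamp3.

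RNA was sequenced from 7 sgKdm6a RPP and 6 sgControl RPP tumours, flash-frozen at necropsy from untreated mice of the pure congenic BL6J background. All mice of both groups carry Cas9 behind a lox-stop-lox cassette. RPP stands, from the published model, for guides against Rb1, Trp53 and Rbl2, which both groups share. Kdm6a encodes the histone H3 lysine demethylase KDM6A, also named UTX. The labels give no age, no promoter for the Cre that opens the cassette and no animal for each tumour. In the sgKdm6a titles, replicates 1 and 2, replicates 4 and 5, and replicates 6 and 7 share a title number each, so a pair may come from the same mouse, and p-values measure only the spread between tumours. The tables hold 16835726 to 22910187 counts per tumour, where 3 counts equal 0.130 to 0.185 CPM (a gene's share of counts on TMM-scaled libraries), a limit for counting error only. Kdm6a mRNA itself ranged from 42.7 to 91.3 CPM in sgKdm6a and from 51.7 to 112 CPM in sgControl tumours (log2 fold change -0.14, SE 0.22, edgeR adjusted p = 0.887), so its level does not check the labels, since a Cas9 cut need not lower the mRNA. Y-linked genes had at least 100 counts in 1 of 7 sgKdm6a tumours (replicate 3) and in 5 of 6 sgControl tumours (all but replicate 4). Among tumours with fewer Y-linked counts, Kdm6a was at 50.9 to 91.3 CPM in sgKdm6a and 112 CPM in sgControl replicate 4. Among the others, it was at 42.7 CPM in sgKdm6a replicate 3 and 51.7 to 76.6 CPM in sgControl tumours. Each comparison has 1 tumour in a group, so neither was tested. sgControl replicate 6 had far more RNA of normal-tissue genes than any other tumour, so results resting on it are given with and without it. Over all genes, edgeR's quasi-likelihood test put 0 of 16575 past an adjusted p of 0.05 between the genotypes (smallest adjusted p = 0.419), DESeq2 put 65 of 15833 there (0.411%), and 1683 (10.2%) had an unadjusted edgeR p under 0.05.

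Most of these genes serve epithelial or barrier functions. In the lung, alveolar type 2 cells make surfactant, while type 1 cells form the thin gas-exchange surface. Airway cells set the chloride and fluid content of the surface liquid. Small cell lung cancer cells are of neuroendocrine type and usually lack these products, so a bulk tumour can hold such RNA from tumour cells or from lung tissue around and within it. In bulk RNA, fewer cells of a type and less RNA per cell cannot be told apart.

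The 7 genes lie on 6 chromosomes, with Slc26a9 and Chil1 both on chromosome 1, and they do not form a family. RefSeq promoters of 300 bases (250 before to 50 after the start, build GRCm38.p6, which is mm10) matched all 7, with several starts for Il33 and Fam78a. Those of Itih4 and Chil1, whose levels moved together most closely (Spearman rho 0.989 over the 13 tumours), and of Slc26a9 are printed with matches to 11 searched motifs in capitals. Slc26a9 had rho 0.780 with Itih4 and 0.764 with Chil1, and Enpep and Fam78a had lower values with both.
Itih4 promoter, chr14:30886226-30886525, plus strand: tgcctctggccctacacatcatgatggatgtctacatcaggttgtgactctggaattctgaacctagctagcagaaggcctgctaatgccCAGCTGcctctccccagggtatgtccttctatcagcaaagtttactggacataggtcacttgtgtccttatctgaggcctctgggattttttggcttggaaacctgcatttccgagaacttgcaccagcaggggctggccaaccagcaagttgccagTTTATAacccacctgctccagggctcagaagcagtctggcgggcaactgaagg
Chil1 promoter, chr1:134181906-134182205, plus strand: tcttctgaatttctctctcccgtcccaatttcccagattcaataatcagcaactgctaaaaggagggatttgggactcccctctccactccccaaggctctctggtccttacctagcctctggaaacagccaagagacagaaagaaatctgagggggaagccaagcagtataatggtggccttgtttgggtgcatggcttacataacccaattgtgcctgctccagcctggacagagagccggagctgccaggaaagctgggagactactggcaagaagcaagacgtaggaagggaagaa
Slc26a9 promoter, chr1:131743772-131744071, plus strand: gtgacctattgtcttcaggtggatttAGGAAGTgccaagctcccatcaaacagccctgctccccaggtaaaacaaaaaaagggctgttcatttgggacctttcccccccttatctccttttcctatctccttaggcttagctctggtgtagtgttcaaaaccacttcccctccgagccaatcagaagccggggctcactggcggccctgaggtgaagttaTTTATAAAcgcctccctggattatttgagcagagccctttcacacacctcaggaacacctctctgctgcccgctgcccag

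The capitals mark an E-box CAGCTG and a TATA box TATAAA read on the opposite strand in Itih4, and an ETS motif AGGAAGT and overlapping TATAAA matches on both strands in Slc26a9. None of the 11 motifs matched in the Chil1 window. TATAAA was found on either strand in 4 of the 7 genes (Enpep, Il33, Itih4 and Slc26a9), against 13.6% of 32851 mouse promoters of this length, and CAGCTG in 4 of 7 (Adgrg6, Fam78a, Il33 and Itih4), against 16.3%. On the strand of the gene, TATAAA matched only in Slc26a9, at base -28 from the start, and in Il33, at -29 in 1 window and -203 in another. The matches of Itih4 (-3) and Enpep (-52 and -1) were on the opposite strand. CTCAAG, a core of NKX2-1 sites, was in 2 of 7 (15.9% of promoters), TGTTTAC of FOXA factors in 1 (3.65%), GGAATG of TEAD factors in 2 (14.7%), TTGCNNAA of CEBP factors in 3 (10.8%), AGGAAGT in 1 (9.35%) and CAGATG in 1 (17.2%). CACTTGA, another NKX2-1 core (3.06%), TGANTCA of AP-1 (7.81%) and AACCNGTT of GRHL factors (2.09%) had no match in these windows. Genes with several starts offer more bases to match, so these counts are descriptions only. CpG content was mixed: the windows of Itih4, Chil1 and Slc26a9 held 2, 3 and 5 CpG, against a median of 7 over all promoters, while that of Adgrg6 held 38.

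Slc26a9 (ENSMUSG00000042268, chromosome 1, 131744022 to 131771504, plus strand, mm10), an epithelial chloride channel and transporter of airway and stomach, was lower in every sgKdm6a tumour than in any sgControl tumour. Its lowest, median and highest levels were 0.0517, 1.22 and 4.31 CPM in sgKdm6a tumours, against 5.59, 19.2 and 67.1 CPM in sgControl tumours. The groups did not overlap, and the sgKdm6a minimum was a single read in replicate 3. On the log2 CPM scale, sgKdm6a tumours averaged 0.40 ± 1.59 (SD, n = 7) and sgControl tumours 4.26 ± 1.37 (SD, n = 6), and the edgeR log2 fold change was -3.90 (SE 0.79). A complete separation of this kind, with all sgKdm6a below all sgControl tumours, held for 27 of the 16575 genes (0.163%) and for 3 of these 7, Slc26a9, Itih4 and Chil1, which were picked on this same contrast.

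Il33 (ENSMUSG00000024810, chromosome 19, 29925114 to 29960718, plus strand, mm10) encodes interleukin-33, an alarmin cytokine stored in nuclei of barrier cells, which in mouse lung include alveolar type 2 cells. It ran at 0.448, 0.782 and 2.34 CPM (lowest, median, highest) in sgKdm6a tumours, against 1.84, 6.4 and 67.9 CPM in sgControl tumours. The groups met at 1 point, where sgKdm6a replicate 4 lay above sgControl replicate 2. The log2 fold change was -4.02 (SE 0.83) with all tumours and -2.77 (SE 0.59) without sgControl replicate 6, which held the highest Il33 level.

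Chil1 (ENSMUSG00000064246, chromosome 1, 134182176 to 134190181, plus strand, mm10) encodes a secreted chitinase-like protein (YKL-40 in humans) that binds chitin without cutting it. Levels were 0.259, 3.68 and 15.04 CPM in sgKdm6a tumours, against 18.7, 47.0 and 1873 CPM in sgControl tumours, with no overlap. The sgControl maximum, in replicate 6, was far from the next sgControl tumour at 90.4 CPM. Its log2 fold change was -5.88 (SE 1.28), or -3.00 (SE 0.68) without that tumour.

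Itih4 (ENSMUSG00000021922, chromosome 14, 30886476 to 30902353, plus strand, mm10) encodes an inter-alpha-trypsin inhibitor heavy chain, a secreted protein best known from liver. It had 0.103, 0.782 and 2.63 CPM in sgKdm6a tumours, against 5.36, 8.19 and 261 CPM in sgControl tumours, again without overlap. As for Chil1, the top value belonged to sgControl replicate 6 and the next was much lower, at 14.4 CPM. Fitted, this was a log2 fold change of -5.47 (SE 1.18), or -2.87 (SE 0.65) without replicate 6. A list of 6 hepatocyte genes summed to 1.55 to 40.4 CPM in sgKdm6a and 1.43 to 61.5 CPM in sgControl tumours, with Serpina1a at 0 counts in all tumours and Alb at no more than 1.22 CPM in sgKdm6a and 1.95 CPM in sgControl tumours. Only 1 of the 6, Ttr, was detected well enough to test (log2 fold change 0.28, SE 0.94, edgeR adjusted p = 0.955).

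Enpep (ENSMUSG00000028024, chromosome 3, 129269175 to 129332720, minus strand, mm10), glutamyl aminopeptidase, is a membrane enzyme that trims angiotensin peptides. Its levels were 0.913, 2.69 and 3.32 CPM in sgKdm6a tumours, against 2.91, 30.2 and 55.3 CPM in sgControl tumours. The sgControl tumours fell into a low pair, replicates 1 and 3 at 2.91 and 3.56 CPM, and 4 tumours at 26.2 to 55.3 CPM, and of the low pair replicate 1 lay inside the sgKdm6a range and replicate 3 just above it. The log2 fold change of Enpep, -3.60 (SE 0.66), was close to that without sgControl replicate 6, -3.55 (SE 0.69).

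Adgrg6 (ENSMUSG00000039116, chromosome 10, 14402583 to 14545659, minus strand, mm10), the adhesion G protein-coupled receptor GPR126 known for its role in myelination by Schwann cells, had 0.517, 1.43 and 2.05 CPM in sgKdm6a and 1.25, 10.7 and 17.2 CPM in sgControl tumours. Here too sgControl replicates 1 and 3 were low, at 1.25 and 2.02 CPM, inside the sgKdm6a range. The log2 fold change was -2.93 (SE 0.61), or -2.69 (SE 0.61) without sgControl replicate 6. An antisense gene, Gm46212, shares 3.61% of its exon bases, and strand was not kept, so those reads cannot be told apart.

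Fam78a (ENSMUSG00000050592, chromosome 2, 32050055 to 32084857, minus strand, mm10), a gene with no well-established function, had 1.06, 1.54 and 2.59 CPM in sgKdm6a and 1.30, 7.43 and 18.7 CPM in sgControl tumours. The low sgControl value was replicate 4, while the other 5 sgControl tumours lay at 6.85 CPM or above and did not overlap with sgKdm6a. The log2 fold change was -2.42 (SE 0.48), or -2.02 (SE 0.43) without sgControl replicate 6. Its exons share 19.6% of their bases with Gm16534 on the same strand and 2.96% with Nup214 on the other, so its count is less certain than those of the 5 genes whose exons overlap no other gene.

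**Figure D1:**
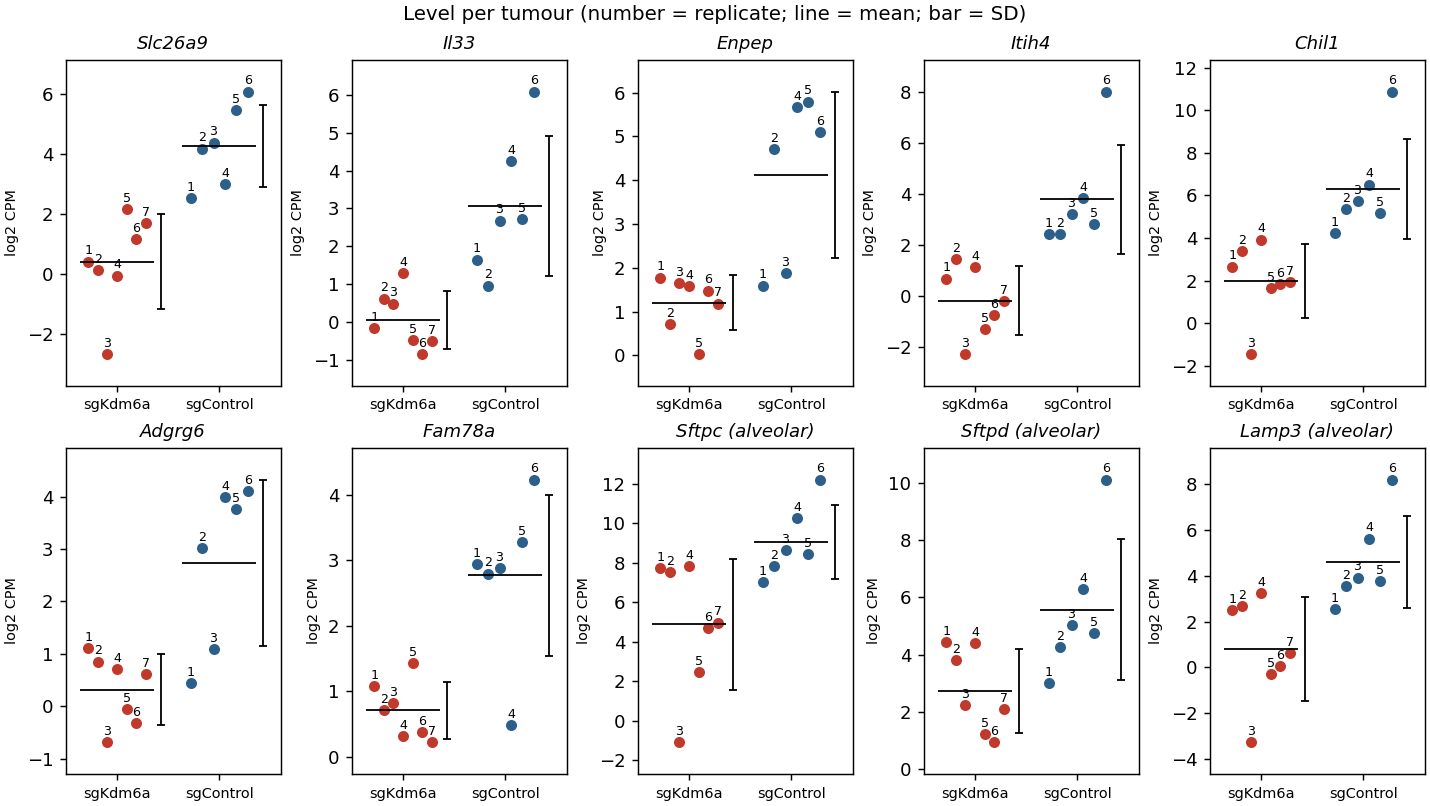
Level of the 7 genes and of 3 alveolar genes in each tumour, in log2 CPM, with sgKdm6a left of sgControl in each panel, points numbered by replicate, lines at the group mean and bars for the SD. Slc26a9, Itih4 and Chil1 show no overlap between the groups, and sgControl replicate 6 is the highest tumour for 9 of the 10 genes, Enpep being the exception.

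By size of fall among the 15774 genes that averaged 1 CPM or more in either genotype, Chil1 was 2nd, Itih4 4th, Il33 26th, Slc26a9 34th, Enpep 50th, Adgrg6 104th and Fam78a 225th. The genes beside Chil1 in that order were Saa3 (-6.15, SE 1.85) and Lcn2 (-5.74, SE 1.29), and those beside Fam78a were Batf (-2.42, SE 0.82) and P2ry2 (-2.41, SE 0.85). Per length, on the authors' FPKM, the median level was highest for Chil1, at 1.22 FPKM in sgKdm6a and 15.7 FPKM in sgControl tumours. The other 6 had medians of 0.109 to 0.524 FPKM in sgKdm6a and 0.808 to 6.06 FPKM in sgControl tumours, with Adgrg6 the lowest in both. Sftpc, the most abundant surfactant gene, had median levels of 28.3 and 331 FPKM in the same groups.

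The alveolar genes differed between the genotypes by as much as most of the 7. Sftpc, which encodes surfactant protein C, had 0.362, 31.3 and 230 CPM (lowest, median, highest) in sgKdm6a tumours, against 132, 371 and 4773 CPM in sgControl tumours. Its log2 fold change was -3.58 (SE 1.21), that of Sftpd, for surfactant protein D, -4.44 (SE 1.20), and that of Lamp3, a lysosomal protein of type 2 cells, -4.21 (SE 1.17). None of the 3 passed, each with an edgeR adjusted p = 0.419. For each of the 3 the groups overlapped, and Lamp3 had 0 counts in sgKdm6a replicate 3, which allows up to 3 counts. The mean log2 fold change of the 3 was -4.08, within the range of the 7 genes, -5.88 to -2.42, whose median was -3.90 against -0.0017 over all genes tested. Without sgControl replicate 6, that mean was -2.14, while the 7 genes ranged from -3.55 to -2.02 with a median of -2.87.

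Set against the alveolar mean of the same tumour, the 7 genes showed no common direction. The log2 ratio of a gene to the mean of Sftpc, Sftpd and Lamp3 was, for Slc26a9, -2.40 ± 2.38 (SD, n = 7) in sgKdm6a and -2.15 ± 1.71 (SD, n = 6) in sgControl tumours, a difference of -0.25. It was -0.82 ± 0.89 in sgKdm6a and -0.11 ± 0.55 in sgControl tumours for Chil1, and -2.97 ± 0.93 in sgKdm6a and -2.61 ± 0.61 in sgControl tumours for Itih4. The differences were -0.72 for Chil1 and -0.37 for Itih4, and 0.61 for Il33, 0.69 for Enpep, 1.20 for Adgrg6 and 1.55 for Fam78a, where a positive value means that the gene differed less than the alveolar mean did. In every case the groups overlapped. With all 10 type 2 markers as the measure of normal lung, the median difference of the 7 was -0.51, in place of 0.61. Those 10 did not move as 1: 7 were lower at an unadjusted edgeR p under 0.05. Abca3 (-0.33, SE 0.26) and Lpcat1 (-0.29, SE 0.32) differed little, with sgKdm6a minima of 73.4 and 75.2 CPM.

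A ratio takes a gene to follow the alveolar genes one for one. A fit that estimates the slope instead, with the alveolar mean as a term, gave other values. Slc26a9, Enpep and Fam78a had values near those without the term, at -3.14 (SE 1.20) for Slc26a9, -3.14 (SE 0.94) for Enpep and -2.11 (SE 0.66) for Fam78a. Those of Chil1 and Itih4 were -0.97 (SE 0.57) and -1.17 (SE 0.42), far smaller than -5.88 and -5.47, while Il33 (-1.65, SE 0.93) and Adgrg6 (-1.61, SE 0.68) lay between. These are descriptions of a contrast that chose the genes. The alveolar mean itself differed between the groups, by -3.62 log2 units (sgKdm6a minus sgControl), so the term and the genotype overlap.

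The title numbers fall into a lower run (2 sgKdm6a and 3 sgControl tumours) and a higher run (5 sgKdm6a and 3 sgControl tumours). The 3 sgControl titles of the lower run carry a prefix that no other title has, so the genotypes there may not belong to 1 series. The labels do not say what the prefix or the runs stand for. In the lower run the alveolar genes were nearly level. Sftpc, Sftpd and Lamp3 there had a mean log2 fold change of -0.46. Slc26a9 had -3.73 (SE 0.76) in the same tumours, with 1.22 and 0.987 CPM in sgKdm6a replicates 1 and 2, against 5.59, 17.9 and 20.6 CPM in sgControl replicates 1, 2 and 3. Chil1 had -2.20 (SE 0.57), Enpep -2.17 (SE 1.19), Fam78a -2.03 (SE 0.49), Il33 -1.75 (SE 0.78), Itih4 -1.68 (SE 0.60) and Adgrg6 -0.999 (SE 0.93). In these 5 tumours all 7 were further below zero than the alveolar mean, Adgrg6 by less than its SE. These tumours are part of the contrast that chose the 7 for a fall, while the alveolar genes were not chosen so. Genes picked for a fall can lie lower for that reason alone, so this is a description and no test. Both sgKdm6a tumours of this run share a title number, and their RNA of 12 general epithelial markers was unlike, at 351 CPM summed in replicate 1 and 4854 CPM in replicate 2. They had 0 and 5 Y-linked counts, against 2677, 3372 and 3840 in sgControl replicates 1, 2 and 3. Sex and genotype thus coincide in this run and cannot be separated there. In the higher run the alveolar mean stood at -5.57, and the 7 genes ranged from -7.05 for Chil1 to -2.70 for Fam78a.

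**Figure D2:**
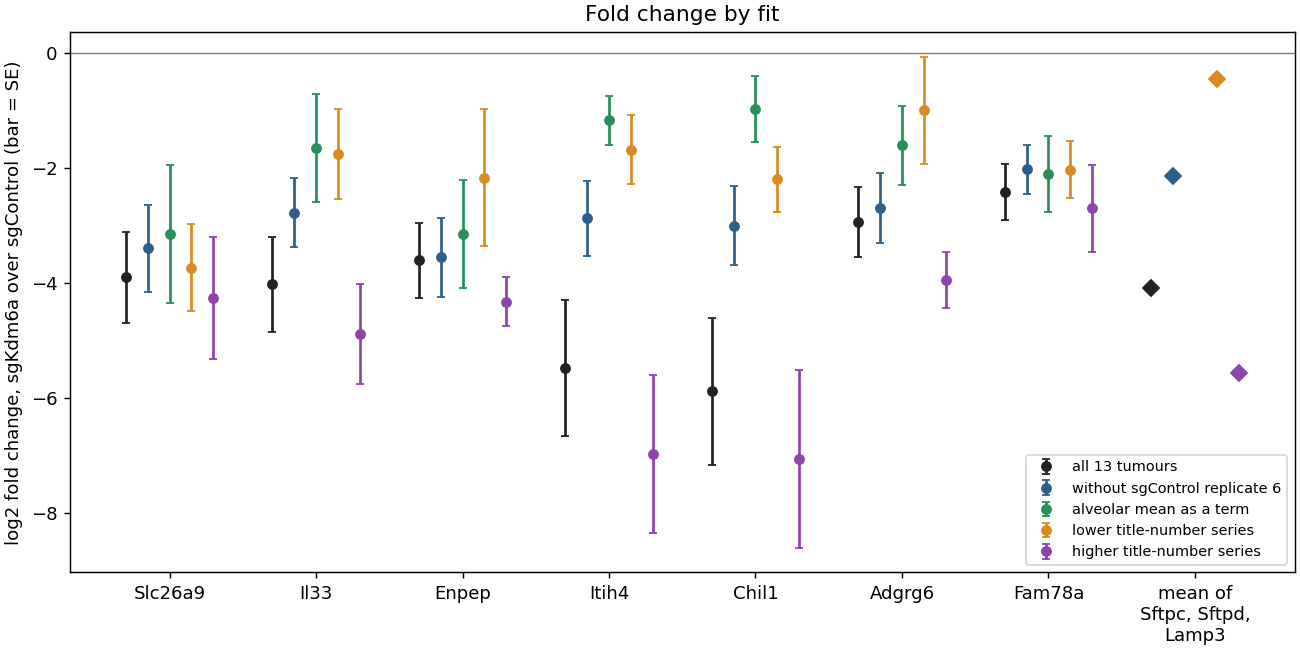
Log2 fold change of each gene, sgKdm6a over sgControl, on the vertical axis with its SE, under 5 fits, and as diamonds the mean over Sftpc, Sftpd and Lamp3, which have no value where they are the term. Chil1 and Itih4 move from -5.88 and -5.47 with all tumours to -0.97 and -1.17 with the alveolar term, while Slc26a9 stays between -4.25 and -3.14 in all 5 fits.

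Relations within a genotype were not themselves used to choose the genes. They were tested as 14 relations (7 genes by 2 genotypes) between a gene and the alveolar mean in log2 CPM. A relation passes here by the adjusted p of its Pearson r. The choice is not fully apart from them: sgControl replicate 6 had the highest alveolar mean and the highest level of each gene but Enpep. A choice by fall can thus favour genes that follow that mean in sgControl tumours. Chil1 followed the alveolar mean in both genotypes, with Pearson r = 0.927 in sgKdm6a (exact permutation p = 9.92e-04, adjusted p = 0.00648, n = 7) and r = 0.976 in sgControl tumours (exact permutation p = 0.00417, adjusted p = 0.0133, n = 6). The Spearman rho of Chil1 was 0.964 in sgKdm6a (exact permutation p = 0.00278, adjusted p = 0.0194) and 0.943 in sgControl tumours (exact permutation p = 0.0167, adjusted p = 0.0583). Itih4 did so too, with r = 0.980 in sgKdm6a (exact permutation p = 7.94e-04, adjusted p = 0.00648) and r = 0.959 in sgControl tumours (exact permutation p = 0.00139, adjusted p = 0.00648). Its rho was 0.893 in sgKdm6a (exact permutation p = 0.0123, adjusted p = 0.0574) and 1 in sgControl tumours (exact permutation p = 0.00278, adjusted p = 0.0194). Without the 2 tumours farthest from the median alveolar level, r was 0.909 and 0.930 for Chil1 and 0.954 and 0.792 for Itih4, the first of each pair for sgKdm6a and the second for sgControl tumours. The Itih4 relation passed in both genotypes with any 1 tumour left out. That of Chil1 missed in sgKdm6a tumours without replicate 3 (r = 0.906, exact permutation, adjusted p = 0.0639). In sgControl tumours it missed without replicate 1 (r = 0.974, exact permutation, adjusted p = 0.0583), replicate 4 (r = 0.993, adjusted p = 0.07) or replicate 6 (r = 0.964, adjusted p = 0.117), with r near that of all 6 tumours.

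Adgrg6 passed in sgKdm6a tumours, with r = 0.923 (exact permutation p = 0.00476, adjusted p = 0.0133) and rho = 0.857 (exact permutation p = 0.0238, adjusted p = 0.0667), against r = 0.672 (exact permutation p = 0.114, adjusted p = 0.228) and rho = 0.829 (exact permutation p = 0.0583, adjusted p = 0.117) in sgControl tumours. Without the 2 farthest tumours its r was 0.893 in sgKdm6a and 0.503 in sgControl tumours. Il33 passed in sgControl tumours, with r = 0.951 (exact permutation p = 0.0111, adjusted p = 0.0259) and rho = 0.886 (exact permutation p = 0.0333, adjusted p = 0.0778), while in sgKdm6a tumours r was 0.376 (exact permutation p = 0.399, adjusted p = 0.558) and rho 0.464 (exact permutation p = 0.302, adjusted p = 0.470). The Adgrg6 relation missed without sgKdm6a replicate 3 (r = 0.859, exact permutation, adjusted p = 0.0519). That of Il33 missed without sgControl replicate 3 (r = 0.950), 5 (r = 0.954), 4 (r = 0.951) or 6 (r = 0.862), with exact permutation, adjusted p = 0.0583 for replicates 3 and 5, 0.156 for replicate 4 and 0.233 for replicate 6. For Il33, r without the 2 farthest tumours was 0.754 in sgKdm6a tumours and, over the 4 left, 0.584 in sgControl tumours. No run of title numbers holds 6 tumours of a genotype, and no correlation was computed within one. Whether a relation differs between the genotypes was not tested, and the sgKdm6a tests count each tumour of a title-number pair separately.

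Slc26a9, Enpep and Fam78a passed in neither genotype. In sgKdm6a tumours r was 0.254 for Slc26a9 (exact permutation p = 0.611, adjusted p = 0.723; rho -0.179, exact permutation p = 0.713), 0.157 for Enpep (exact permutation p = 0.723, adjusted p = 0.723; rho 0.25, exact permutation p = 0.595) and -0.22 for Fam78a (exact permutation p = 0.632, adjusted p = 0.723; rho -0.36, exact permutation p = 0.444). In sgControl tumours r was 0.592 for Slc26a9 (exact permutation p = 0.225, adjusted p = 0.394; rho 0.6, exact permutation p = 0.242), 0.502 for Enpep (exact permutation p = 0.329, adjusted p = 0.512; rho 0.486, exact permutation p = 0.356) and 0.184 for Fam78a (exact permutation p = 0.674, adjusted p = 0.723; rho 0.143, exact permutation p = 0.803). The adjusted p for these 6 rho ran from 0.423 to 0.803. A single tumour, replicate 3, decides the Slc26a9 value in sgKdm6a tumours. Without it r was -0.94 (exact permutation p = 0.0222, adjusted p = 0.0519, n = 6), while without any other single sgKdm6a tumour r was 0.278 to 0.503. Without the 2 farthest tumours r was -0.92 for Slc26a9, 0.477 for Enpep and -0.020 for Fam78a in sgKdm6a tumours, and 0.878 for Slc26a9, 0.405 for Enpep and 0.218 for Fam78a in sgControl tumours. Replicates 5, 6 and 7, with the higher Slc26a9 levels of 4.31, 2.14 and 3.13 CPM, had Sftpc at 5.43, 25.9 and 31.3 CPM, while replicates 1, 2 and 4, with Slc26a9 at 1.22, 0.987 and 0.854 CPM, had Sftpc at 216, 183 and 230 CPM. At n = 6 and n = 7, a missed threshold does not show that a relation is absent.

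**Figure D3:**
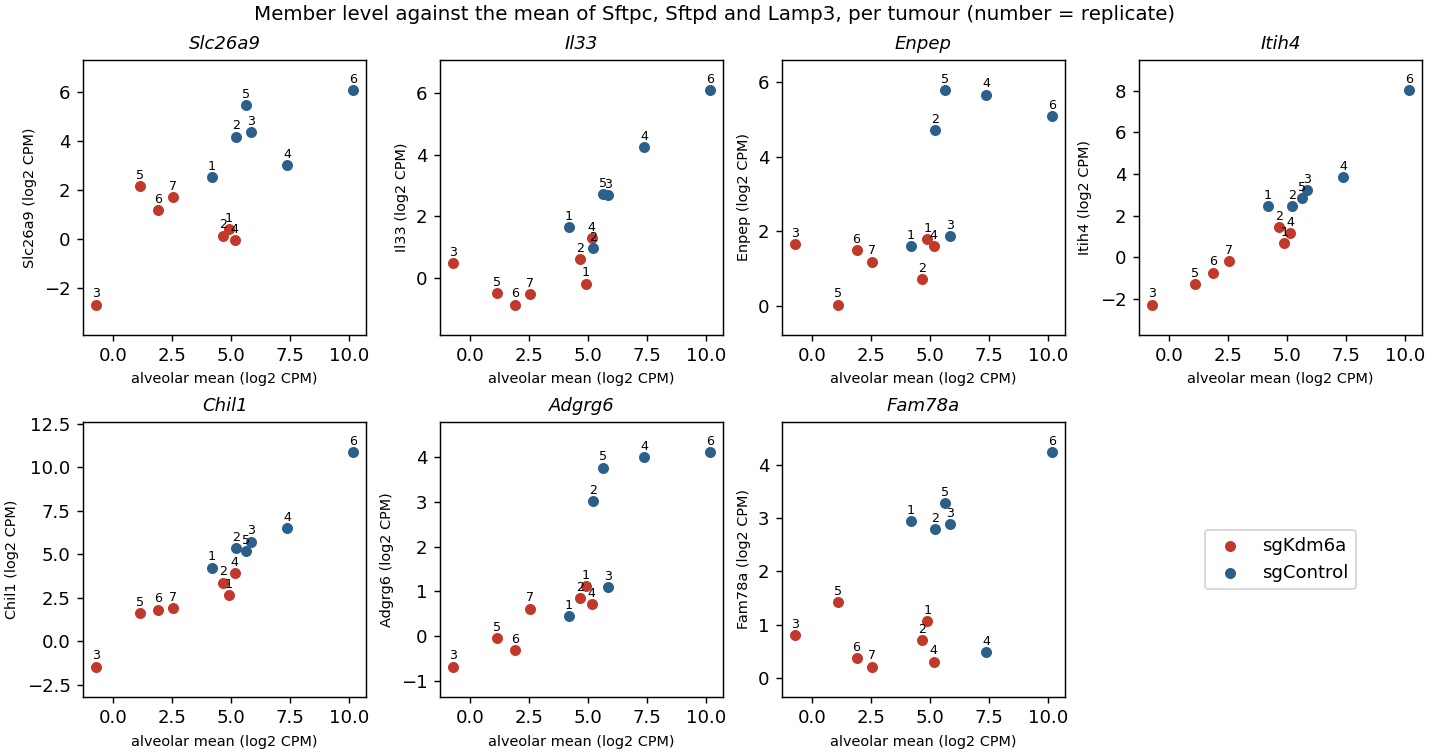
Level of each of the 7 genes (vertical, log2 CPM) against the mean of Sftpc, Sftpd and Lamp3 (horizontal, log2 CPM) in each tumour, red for sgKdm6a and blue for sgControl, numbered by replicate. The Chil1 and Itih4 points lie along a line in both genotypes (r of 0.927 to 0.980), while those of Slc26a9, Enpep and Fam78a do not.

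Tumours that share a title number were alike in 2 of 3 pairs. Between sgKdm6a replicates 1 and 2 the 7 genes differed by 0.26 to 1.06 log2 CPM, and between replicates 6 and 7 by 0.098 to 0.94. Replicates 4 and 5 differed by 0.76 to 2.44 log2 CPM, with Itih4 lower and Slc26a9 higher in replicate 5, and their alveolar means were 4.03 log2 CPM apart. A test of the higher against the lower run of title numbers, with genotype in the model, called 0 of 16575 genes with edgeR at an adjusted p of 0.05 (918 genes, 5.54%, at an unadjusted p under 0.05, of which 472, or 2.85%, were higher). The 7 genes had log2 differences of 0.12 for Fam78a to 1.42 (SE 0.79) for Il33, each with an edgeR adjusted p of 0.855 to 0.974. This model takes 1 run difference for both genotypes. Mean log2 CPM of Chil1 in the higher and lower run was 7.51 and 5.11 in sgControl, but 1.57 and 3.01 in sgKdm6a tumours. For Itih4 it was 4.91 and 2.71, but -0.67 and 1.07. Adgrg6, Il33 and Enpep also differed in opposite directions, Slc26a9 and Fam78a in the same direction.

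Y-linked reads moved with the groups, and for Fam78a with the level inside a group. sgControl replicate 4, the sgControl tumour without Y-linked counts, had Fam78a at 1.30 CPM, inside the sgKdm6a range. sgKdm6a replicate 3, with 6689 Y-linked counts, had 1.65 CPM, also inside that range. With a term for the Y-linked mean, the log2 fold change of Fam78a was -1.33 (SE 0.86) in place of -2.42, while that of Slc26a9 was -5.07 (SE 1.77) in place of -3.90, that of Il33 -3.95 (SE 0.99) in place of -4.02 and that of Enpep -3.75 (SE 0.74) in place of -3.60. Itih4 had -5.71 (SE 1.95), Chil1 -6.71 (SE 2.27) and Adgrg6 -3.67 (SE 0.75) in this fit. The mean of Sftpc, Sftpd and Lamp3 was -5.82 in place of -4.08, further below zero than each of the 7 genes but Chil1. For Slc26a9, Il33, Enpep, Itih4, Chil1 and Adgrg6, sgControl replicate 4 lay above every sgKdm6a tumour. Its levels of these genes were, in that order, 7.87, 18.9, 50.9, 14.4, 90.4 and 15.8 CPM. In sgKdm6a replicate 3 they were 0.0517, 1.29, 3.05, 0.103, 0.259 and 0.517 CPM. These lay below every sgControl tumour except for Enpep, where sgControl replicate 1 had 2.91 CPM. Each genotype has a single tumour of the rarer sex, so sex and genotype cannot be separated by a test here.

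The name epithelial was checked against marker lists, read against 6.97% of all genes being lower at an unadjusted edgeR p under 0.05 and 3.18% higher. Of 12 general epithelial genes, 0 were lower and 0 higher, with a median log2 fold change of -0.15. Epcam, an adhesion protein, had 0.21 (SE 0.70, edgeR adjusted p = 0.957), and Krt8, a keratin, 0.025 (SE 0.83, adjusted p = 0.999). Their summed level was 86.1 to 5171 CPM in sgKdm6a and 1216 to 5387 CPM in sgControl tumours, with sgKdm6a replicates 3 and 1 the lowest at 86.1 and 351 CPM. Club cell genes (0 of 8 lower, 1 higher, median -0.18; Scgb1a1 -0.54, SE 1.002) and ciliated cell genes (0 of 8 lower, 1 higher, median -0.047; Foxj1 -0.41, SE 0.83) likewise lay near all genes. Of 6 lung lineage factors 1 was lower, Cebpa, at -1.49 (SE 0.51, edgeR adjusted p = 0.419). Without sgControl replicate 6, 0 of 6 were lower and Cebpa had -0.70 (SE 0.34). Over all tumours, Nkx2-1 had -0.31 (SE 0.24) and Foxa1 0.035 (SE 0.40). Gastric genes, set beside Slc26a9, summed to at most 1.17 CPM in sgKdm6a and 6.59 CPM in sgControl tumours, with Gkn2 at 0 counts in all. No general epithelial or airway marker was thus lower at this threshold, and Fam78a is not known as an epithelial gene, so the 7 are called here by their symbols.

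Normal-tissue lists moved with the 7 genes. Of 10 type 2 markers 7 were lower at an unadjusted edgeR p under 0.05 (median -3.43), of 10 type 1 markers 7 (median -2.36, with Ager at -3.74, SE 0.99), of 12 endothelial markers 9 (median -2.18, with Pecam1 at -2.26, SE 0.64), of 11 fibroblast and pericyte markers 7 (median -1.80) and of 10 macrophage markers 10 (median -2.47). None of these genes passed the adjustment over all genes. Without sgControl replicate 6, where 2.79% of all genes were lower and 2.75% higher, the counts were 4, 3, 5, 2 and 1, with medians of -1.72, -0.49, -0.71, -0.18 and -0.28. The macrophage list summed to 238 to 654 CPM in sgKdm6a tumours, against 484 to 1581 CPM in 5 sgControl tumours and 17216 CPM in replicate 6. Medians of smaller lists were -3.16 for neutrophil genes (2 of 3 lower), -1.37 for T and NK cell genes (0 of 4) and -1.04 for mesothelial genes (0 of 3), and without that tumour 0.86, -0.49 and 0.42, with 0 lower in each. The part of these cells in the levels of the 7 genes was not tested beyond the fits above. Neuroendocrine genes, which mark the labelled tumour type, had 0 of 10 lower and 2 higher (median 0.24), and summed to 3306 to 15757 CPM in sgKdm6a and 2788 to 5942 CPM in sgControl tumours. In the basal list only Krt17 was tested (2.01, SE 1.03).

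**Figure D4:**
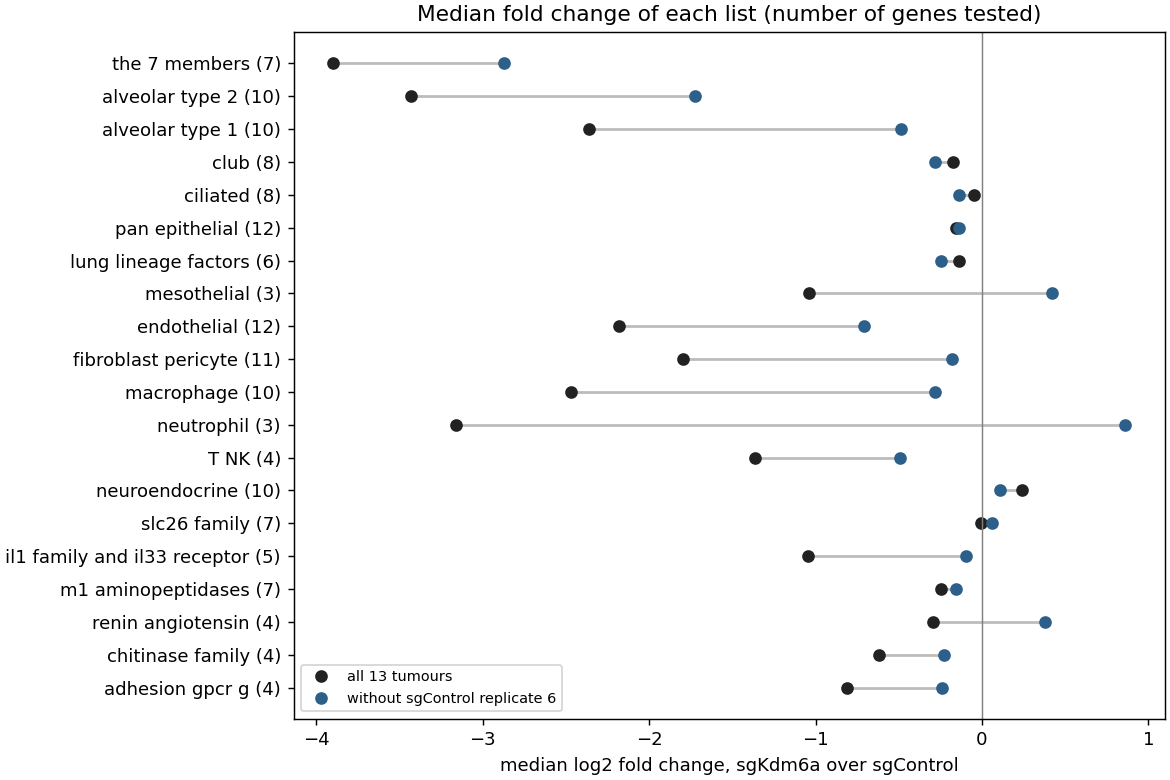
Median log2 fold change, sgKdm6a over sgControl, of the 7 genes and of gene lists with 3 or more tested members (number tested in brackets), with all 13 tumours (black) and without sgControl replicate 6 (blue). The Y-linked list and the 3 alveolar reference genes are not drawn. The median of those 3 was -4.21 with all tumours and -2.24 without sgControl replicate 6. The 7 genes stay at -2.87 without that tumour, while the macrophage and fibroblast medians come to -0.28 and -0.18, and general epithelial, club and ciliated genes stay near 0 in both.

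Over 8 lists of relatives of the 7 genes, 7 of 33 tested genes (21.2%) were lower at the unadjusted edgeR threshold, where 6.97% of all genes were. Without sgControl replicate 6, 2 of 33 (6.06%) were, against 2.79%. In the SLC26 family, 0 of 7 tested members were lower and 1 was higher, with Slc26a2 at -0.0081 (SE 0.39) and Slc26a6 at -0.068 (SE 0.21), both with an edgeR adjusted p of 0.949 or above. Among M1 aminopeptidases 1 of 7 was lower (0 of 7 without sgControl replicate 6), and Lnpep and Npepps had -0.0079 (SE 0.22) and -0.25 (SE 0.15). Of the renin-angiotensin genes, which act on the same peptides as Enpep, 0 of 4 were lower, with Ace at 0.021 (SE 0.62) and Agtr1a at 0.66 (SE 0.85). Of the IL-1 family and the receptor of Il33, 2 of 5 were lower with a median of -1.04, and 0 of 5 without sgControl replicate 6, with a median of -0.094. Il1rn, the receptor antagonist, had -1.04 (SE 0.94), or -0.27 (SE 0.94) without that tumour, and the co-receptor Il1rap 0.67 (SE 0.38), or 0.76 (SE 0.41). None of these family genes passed the adjustment over all genes.

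Chitinase-like relatives had 0 of 4 lower, with Chil3, a macrophage product in mouse lung, at -2.27 (SE 1.44), or 0.77 (SE 1.18) without sgControl replicate 6, and Chid1 at -0.48 (SE 0.24). The 1 tested relative of Itih4, Itih5, was lower at the unadjusted threshold, at -1.75 (SE 0.79, edgeR adjusted p = 0.481), and not without sgControl replicate 6, at -0.70 (SE 0.66). Among adhesion receptors of the G group 2 of 4 were lower (1 of 4 without sgControl replicate 6), while the most abundant, Adgrg1 and Adgrg2, had -0.24 (SE 0.23) and 0.55 (SE 0.51). Fam78b, the paralogue of Fam78a, had -1.47 (SE 0.47), and -1.04 (SE 0.41) without replicate 6, with an edgeR adjusted p = 0.419 over all 13 tumours.

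Genes most like each of the 7 were ranked by Spearman rho of log2 CPM over the 13 tumours, a description in which tumours of both genotypes share the contrast that chose the genes. Chil1 and Itih4 were each other's closest gene (rho 0.989), followed for both by Ager, the receptor of type 1 cells, and Lamp3. Adgrg6 was closest to Clic5, a type 1 marker (rho 0.973), Tspan11 and Scnn1g, an epithelial sodium channel subunit. Il33 was closest to Lcn2, a secreted iron-binding defence protein (rho 0.945), Bcl3 and Mmp19. Slc26a9 was closest to C77080 (rho 0.907), Dtx3l and Piezo2, Enpep to Mgl2, a macrophage lectin (rho 0.868), Tmbim1 and Car14, and Fam78a to Sh2b2 (rho 0.951), Trim17 and the endothelial gene Mmrn2. Fam78a had its lowest rho among the 7 with Adgrg6, at 0.423.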

How the data were processed

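RNA of 13 tumours was analysed (7 sgKdm6a, 6 sgControl, by the genotype label, with replicates numbered in accession order). Per the labels' protocols, libraries kept no strand and were read from both ends. STAR, DESeq2 and mm10 come from the submitters' processing notes. The counter is not given in the sources used here, nor is the annotation. The authors deposited raw gene counts and FPKM, and the FPKM equal count over gene length and 1 constant per tumour. A table of the authors' group means was not used, and 15 date-like gene names were restored by identifier.

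The main test used edgeR 4.0.16 under R 4.3.3 (filterByExpr, TMM, robust quasi-likelihood F test, Benjamini-Hochberg over 16575 genes, threshold 0.05). SE is the fold change over the square root of F, and log2 CPM uses a prior count of 2. Fold changes are sgKdm6a over sgControl. Correlations were tested by two-sided exact permutation of pairings. Scripts were tested on simulated data. Lists are described by counts and medians.

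The 7 genes, the marker and family lists, and the tests were chosen with earlier results of these data known. Named are the 7, 3 alveolar genes, up to 2 members of highest mean CPM of a list, 3 genes most alike to each of the 7, and neighbours in order of fall. Ager, Pecam1, Cebpa, Alb, Serpina1a, Abca3 and Lpcat1 were added after values were seen, and some genes the rule takes are not printed. Alternatives were upper-quartile and RLE factors, DESeq2 1.42.0, no filter, limma-trend (limma 3.58.1) on log2(FPKM + 1) and log2(FPKM + 0.1), summed title numbers, title-number series, terms for the alveolar and Y-linked means, other references and prior counts, and each tumour left out.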

Additional observations from a re-analysis of the deposited data

Results flagged for a closer look

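Over 30 sets of tumour values of 1 genotype (7 genes and the alveolar mean as levels, 7 genes as ratios to that mean), 3 held a tumour far from the others by Dixon's criterion, where chance flags about 5% of sets. Chil1 in sgKdm6a tumours was lowest in replicate 3, with a gap of 0.575 of the range. In sgControl tumours, Itih4 and Chil1 were highest in replicate 6, with gaps of 0.747 and 0.659 of the range. Those tumours also had the lowest and the highest alveolar mean, at -0.72 and 10.2 log2 CPM, and as ratios to that mean neither gene was flagged.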

How the results depend on the processing

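No paired analysis was possible because the labels give the groups no shared replicate numbers. The log2 fold change of each of the 7 genes was below 0 under every alternative run. Their median, -3.90, was -1.80 on log2(FPKM + 1), -2.03 in the lower title-number run alone, -1.65 with the alveolar term, and, with 2 alternatives chosen after seeing the data, -2.09 with a term for 5 tissue lists and -1.91 with the alveolar term and sgControl replicate 6 left out. With 1 tumour left out it ran from -4.11 to -2.87, the smallest size without sgControl replicate 6. DESeq2 called 65 genes past an adjusted p of 0.05, where edgeR called 0. The 1156 genes lower at an unadjusted p under 0.05 became 2087 without a filter, 520 on log2(FPKM + 1) and 594 on log2(FPKM + 0.1) by limma-trend, 574 with summed title numbers, 386 in the lower run, 706 with the alveolar term, 417 with the Y-linked term, 602 with the tissue term and 469 to 1327 with 1 tumour left out.

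The median difference relative to the alveolar mean, 0.61, ran from -0.051 (without sgKdm6a replicate 3) to 0.95 with 1 tumour left out, and was -0.16 against Sftpd alone and 1.18 against Sftpc alone, so its sign is not settled. Of 14 relations with the alveolar mean 6 passed by Pearson r, and 4 to 6 with 1 tumour left out. By Spearman rho only Chil1 in sgKdm6a and Itih4 in sgControl tumours passed (exact permutation, adjusted p = 0.0194 for each). The share of all genes that follow the alveolar mean in this way is not given here, so these counts do not set the 7 genes apart. The relations of Itih4 passed by r each time. Low counts limit the sgKdm6a values: Slc26a9, Itih4 and Lamp3 had 1, 2 and 0 counts in replicate 3.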
